A study of Oryza sativa with 4 samples.

Results

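Ascorbate peroxidases are the plant enzymes that reduce hydrogen peroxide to water with ascorbate as the electron donor. The family in rice flag leaf was examined here as 8 loci, chosen by locus identifier from a table of 35667 gene rows, and all 8 were present once and had been tested by the authors. The study compared the dwarf mutant d1 (labelled d1-1), which is mutated in RGA1, a gene that encodes the alpha subunit of the heterotrimeric G protein, with wild type (WT, titled TC65). Each genotype had 2 libraries from flag leaf blades taken where the blade was widest. Plants of both genotypes stood singly in pots in a greenhouse, where days averaged 30 °C with lamps on for 16 h (mean intensity 500 μmol m-2 s-1) and nights were kept at 25 °C. Their age is labelled as 2 months, while the growth notes give 100 days. The sources used here give neither the hour of sampling nor the genetic background of the mutant, and 1 allele stands for the mutant.

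Hydrogen peroxide arises in the leaf in the chloroplast, where electrons of photosystem I reduce oxygen, in the peroxisome, where photorespiration oxidises glycolate, and in mitochondria and the cytosol. Separate ascorbate peroxidases serve these places. APX1 (OS03G0285700) and APX2 (OS07G0694700) are the cytosolic enzymes, and APX3 (OS04G0223300) and APX4 (OS08G0549100) belong to the peroxisome. APX7 (OS04G0434800) is the stromal and APX8 (OS02G0553200) the thylakoid-bound enzyme of the chloroplast. APX5 and APX6 are organelle types encoded side by side on chromosome 12. The oxidised ascorbate is recycled by monodehydroascorbate reductase, and by dehydroascorbate reductase with glutathione, which glutathione reductase restores.

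The table held 1 value per genotype, in FPKM, which the authors had formed over the 2 libraries. FPKM are fragment counts relative to the length of the transcript and to the size of the library, whose scaling here is not stated. No value per library exists in it, so no spread between libraries, SD or interval can be given, and whether a difference exceeds the spread rests on the q-value of the authors' deposited table (a p-value adjusted for many genes, called when under 0.05). The sources used here do not give the mapped reads of a library. The design notes name roughly 40000000 reads for each, single-end and 150 bp long. The FPKM sums were 1381426 in d1 and 1144962 in WT, a log2 ratio of 0.27, whereas the median log2 ratio of the 23672 tested genes was -0.02. RGA1 itself was read at 17.3 FPKM in d1 and 20.7 FPKM in WT, and the authors' deposited table gives q = 0.296. That value covers the whole locus and so checks neither the lesion nor the labels. The 4 rubisco small subunit loci, markers of leaf mesophyll, were abundant in both genotypes, summing to 57514 FPKM in d1 and 31007 FPKM in WT. The 3 floral and 1 meristem marker loci stayed at 0.226 FPKM or lower in d1 and 0.172 FPKM or lower in WT. Of the 2 root silicon transporter loci, 1 was listed at 0 in both genotypes and the other stood at 11.0 FPKM in d1 and 10.5 FPKM in WT. The 2 loci that mark dividing cells summed to 6.63 FPKM in d1 and 8.38 FPKM in WT, and neither was called.

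The names APX1 to APX8 were matched to RefSeq symbols (assembly ASM3414082v1), each with 1 entry on the chromosome that the locus identifier shows. For the pair on chromosome 12 the numbering was uncertain. The list of members gives OS12G0178100 as APX5 and OS12G0178200 as APX6, but RefSeq places APX6 ahead of APX5, with 0 genes between them. On chromosome 4, where identifiers rise from APX3 to APX7, RefSeq had the same order as the identifiers. The chromosome 12 loci are therefore called by their identifiers below. Loci outside the family carry enzyme or marker names entered from general knowledge, which could not be checked against an annotation of the build used.

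Members of the family moved in both directions in d1. Transcripts of thylakoid APX8 rose about 2-fold and those of peroxisomal APX3 rose 3.61-fold from a low level, while cytosolic APX1, stromal APX7 and OS12G0178100 fell. APX2, APX4 and OS12G0178200 did not pass the test. By the authors' deposited q-values, 5 of the 8 loci were called, 2 higher and 3 lower in d1, where 19.3% of all tested genes were called, 7.24% higher and 12.1% lower. The family's median log2 ratio was -0.43, against -0.02 for all tested genes. The Benjamini-Hochberg adjustment was also recomputed from the deposited p-values over all tested genes. This adjustment called the same 5 loci, and 14.3% of tested genes, 5.09% higher and 9.17% lower. At the smallest deposited p, the deposited q was 0.000186 and the recomputed q was 0.000882. The deposited q was thus the lower there, for a reason not known here. A minimum of 1 FPKM or the omission of repeated identifiers also kept the 5 calls, at 16.0% and 14.2% of tested genes. A q under 0.01 called 4 of the 8 loci and 12.0% of tested genes. Asking for at least 2-fold on the deposited scale left 2 loci and 8.98%. When tested genes were divided by mean level into 10 equal groups, 4 of the 8 loci fell in the top group. In that group 33.8% of genes were called, 17.9% higher and 15.9% lower. The 8 loci are too few to say whether the family differs from other genes in this respect.

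**Figure D1:**
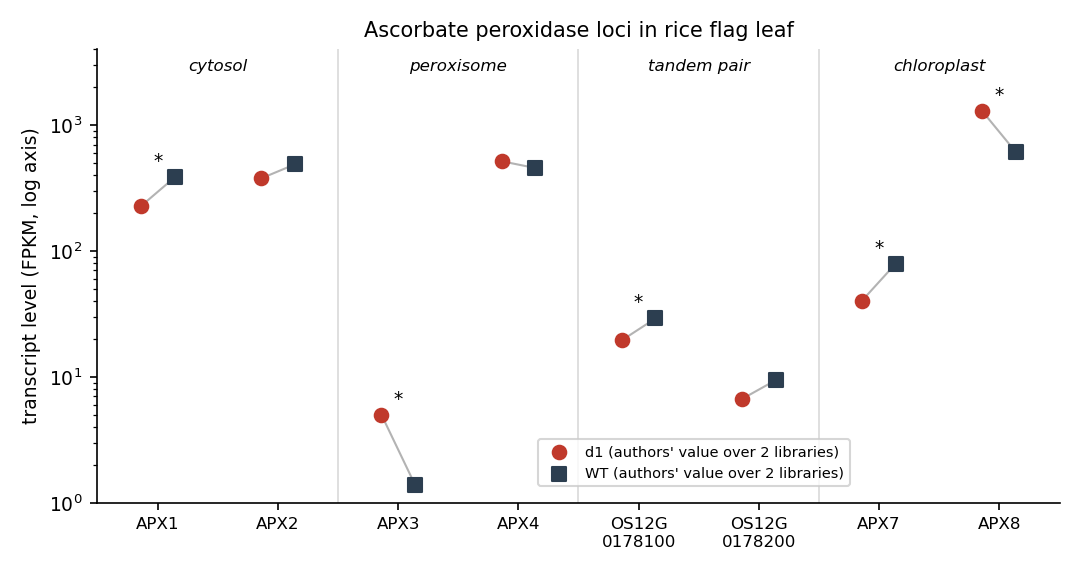
Transcript level (FPKM, log axis) of the 8 ascorbate peroxidase loci in d1 (circles) and WT (squares), grouped by the place of the enzyme. Each point is the authors' value over 2 libraries, without an error, and stars mark the 5 loci with a q-value under 0.05 in the authors' deposited table. APX8 stood highest in both genotypes, at 1287 FPKM in d1 and 608 FPKM in WT.

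The 2 chloroplast loci moved in opposite directions. APX8, whose enzyme sits on the thylakoid membrane beside photosystem I, was read at 1287 FPKM in d1 and 608 FPKM in WT, a 2.12-fold rise and a log2 ratio of 1.08. The authors' deposited table gives p = 5e-05, the smallest p it contains and one shared by 1342 genes, and q = 0.000186. APX8 ranked 123 in level among tested genes in d1 and 213 in WT. Within the top group by level, 65 of 2367 genes (2.75%) had a log2 ratio as high as that of APX8 or higher. APX7, the enzyme dissolved in the stroma, was read at 40.4 FPKM in d1 and 79.5 FPKM in WT, a log2 ratio of -0.98. It has the same smallest p and q = 0.000186 in the authors' deposited table. In its own group by level, 102 of 2367 genes (4.31%) had a ratio as low or lower.

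The balance between the chloroplast pair can be expressed within each genotype, where the scaling between genotypes cancels. On the FPKM scale, which is per transcript length, APX8 exceeded APX7 by 31.9 times in d1 and 7.65 times in WT. This corresponds to a difference of 2.06 between their log2 ratios. The difference itself could not be tested without values per library. Summed, both loci reached 1327 FPKM in d1 and 687 FPKM in WT. The rubisco small subunit loci, markers of mesophyll, were also higher, at log2 ratios from 0.70 to 1.35, and the authors' deposited q-values called 2 of the 4 (7.24% of all tested genes were called higher). With the recomputed adjustment 1 of these calls, OS12G0291400 (recomputed q = 0.0888), was lost. The part of these markers in the APX8 result was not tested. In bulk leaf RNA, a change in the number of cells of a type and a change in RNA per cell cannot be told apart.

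**Figure D2:**
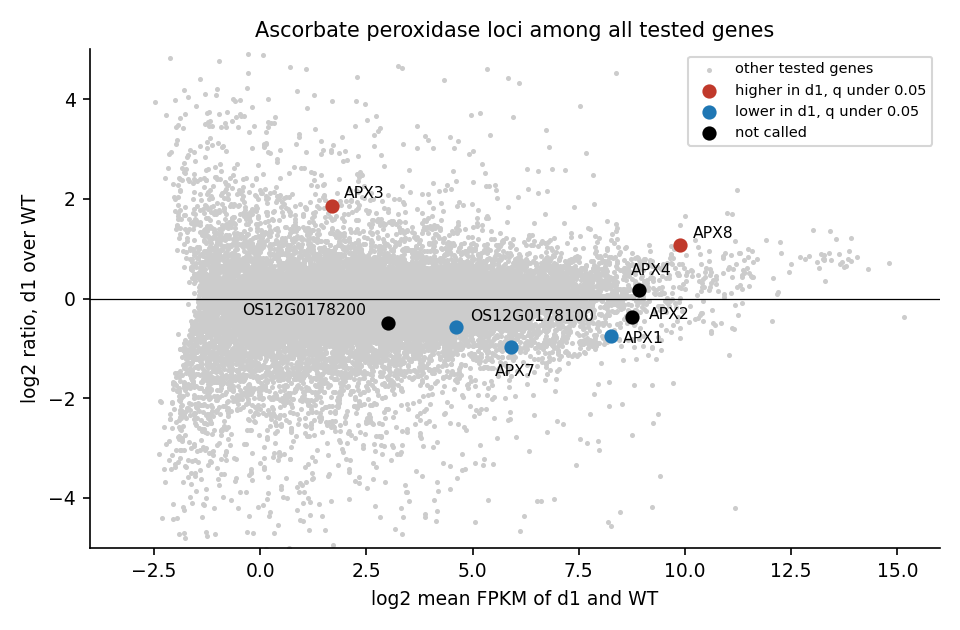
Log2 ratio of d1 over WT against log2 mean FPKM for tested genes with a value above 0 in both genotypes (grey, 23530 genes including the members, of which 43 lie outside the axes) and for the 8 ascorbate peroxidase loci (named). APX8 at a log2 ratio of 1.08 stands at the upper side of the abundant genes, and APX7 (-0.98) and APX1 (-0.76) at the lower side of genes of their level.

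Both cytosolic loci had lower values in d1. APX1 was read at 227 FPKM in d1 and 384 FPKM in WT, a log2 ratio of -0.76, with q = 0.000359 in the authors' deposited table, and thus fell. In the top group by level, 228 of 2367 genes (9.63%) had a ratio as low as that of APX1 or lower. APX2, the more abundant of the pair in both genotypes, was read at 377 FPKM in d1 and 487 FPKM in WT. Its log2 ratio of -0.37 did not pass, at p = 0.0611 and q = 0.121 in the authors' deposited table. APX2 exceeded APX1 by 1.66 times in d1 and 1.27 times in WT. Both loci together summed to 605 FPKM in d1 and 871 FPKM in WT, a log2 ratio of -0.53. That a fall was called for APX1 and not for APX2 does not show that the pair differed, since their difference was not tested. How the authors' counting divided reads that match both copies is not stated in the sources used here, which limits the values of such paralogs.

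The peroxisomal pair consisted of an abundant and a rare transcript. APX4 was read at 516 FPKM in d1 and 456 FPKM in WT, and its log2 ratio of 0.18 did not pass (q = 0.525 in the authors' deposited table). With both FPKM sums set equal this ratio became -0.09, so no direction can be given for APX4. APX3 rose to 5.02 FPKM in d1, against 1.39 FPKM in WT, a log2 ratio of 1.85 with p = 0.000200 and q = 0.000687 in the authors' deposited table. This was the highest ratio of the family, and 1.48% of genes in the same group by level had one as high or higher. A read count for APX3 assumes that every stated read mapped and that FPKM were scaled to mapped reads. On that basis, 1 kb of its transcript would have gathered about 201 reads per library in d1 and 56 in WT. With 1 FPKM added to both genotypes, the log2 ratio of APX3 was 1.33. APX4 remained 103 times above APX3 in d1 and 328 times above it in WT, so the peroxisomal sum was 521 FPKM in d1 and 458 FPKM in WT.

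The adjacent loci on chromosome 12 were low and had lower values in d1 by similar factors. OS12G0178100 fell to 19.5 FPKM in d1, against 29.1 FPKM in WT, a log2 ratio of -0.58, with p = 0.00420 and q = 0.0112 in the authors' deposited table. OS12G0178200 was read at 6.67 FPKM in d1 and 9.40 FPKM in WT, a log2 ratio of -0.49 that did not pass, with p = 0.0405 and q = 0.0848 in the authors' deposited table. The ratio of the first locus to the second was 2.92 in d1 and 3.10 in WT. These neighbours are related copies, so reads may be shared between them, and the call of OS12G0178100 was lost with a q under 0.01.

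**Figure D3:**
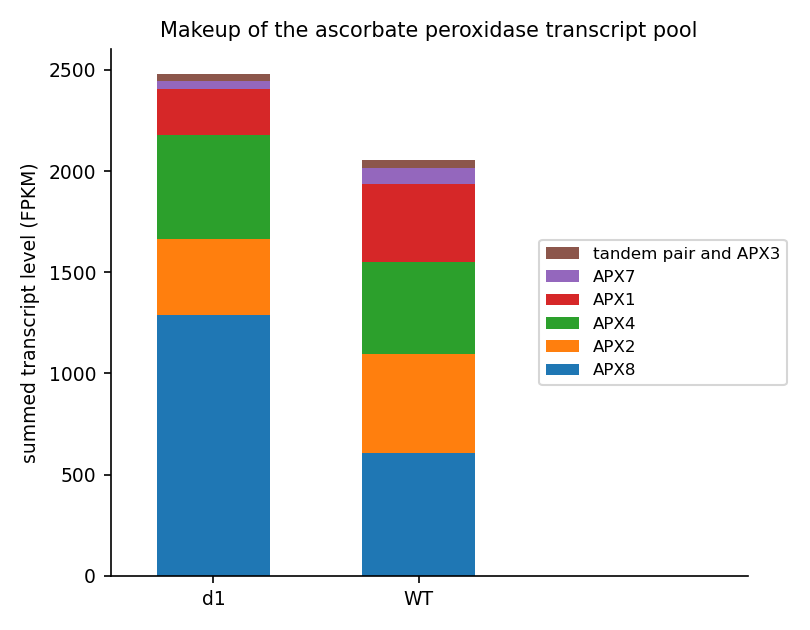
Summed FPKM of the 8 ascorbate peroxidase loci in d1 and WT, with each bar divided by locus and no error available. The d1 bar reaches 2479 FPKM and the WT bar 2055 FPKM, and APX8 fills 51.9% of the d1 bar and 29.6% of the WT bar.

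The largest part of the family sum came from APX8 in both genotypes. All 8 loci together reached 2479 FPKM in d1 and 2055 FPKM in WT, a log2 ratio of 0.27. This equals the ratio of the FPKM sums over all genes, and the family made up 0.179% of the whole in both genotypes. APX8 made up 51.9% of the family in d1 and 29.6% in WT. Without APX8, the other 7 loci summed to 1192 FPKM in d1 and 1447 FPKM in WT. The cytosolic loci made up 24.4% of the family in d1 and 42.4% in WT. The chloroplast loci supplied 53.6% in d1 and 33.5% in WT, and the peroxisomal loci 21.0% in d1 and 22.3% in WT. The chromosome 12 pair contributed 1.05% in d1 and 1.87% in WT. These shares are descriptions of 1 value per genotype and carry no test.

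The order of levels was nearly the same in both genotypes. In d1 it ran APX8, APX4, APX2, APX1, APX7, OS12G0178100, OS12G0178200 and APX3. In WT, APX2 (487 FPKM) stood ahead of APX4 (456 FPKM), and the other loci kept their places. Whether APX2 and APX4, or any other neighbours in this order, differ beyond the spread between libraries cannot be said. APX1, APX2, APX4 and APX8 were all among the 642 most abundant tested genes in d1 and the 335 most abundant in WT. APX8 stood 2.50 times above the next locus, APX4, in d1, and 1.25 times above the next, APX2, in WT.

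**Figure D4:**
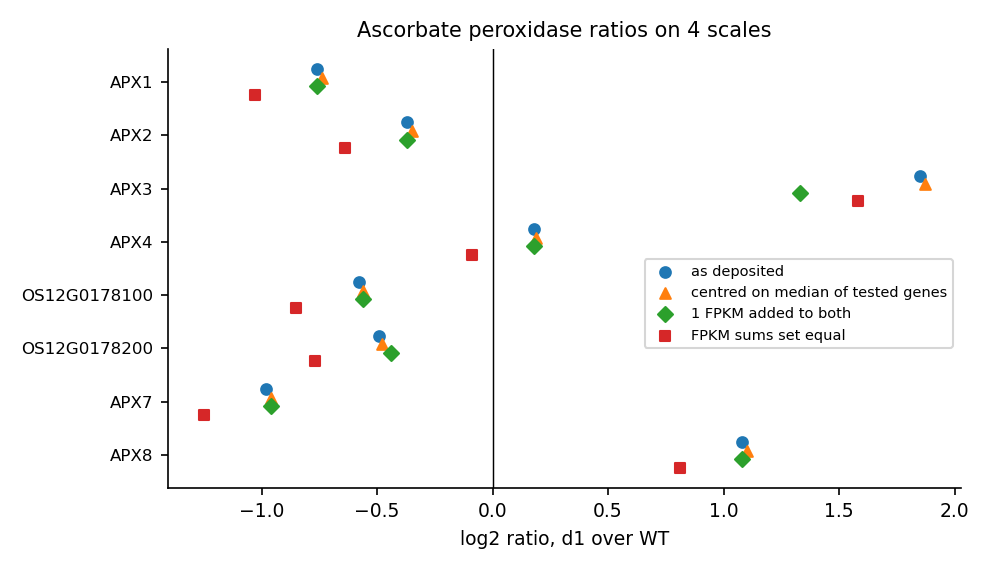
Log2 ratio of d1 over WT for each ascorbate peroxidase locus as deposited, after centring on the median of tested genes, after adding 1 FPKM to both genotypes and after setting both FPKM sums equal. APX4 crosses 0, at 0.18 as deposited and -0.09 with equal sums, and the other 7 loci keep their side on all 4 scales.

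Of the tested loci for ascorbate recycling, with glutathione reductase included, 7 had lower values in d1 and 2 had higher values. These counts include OS08G0151800 as lower and OS06G0232600 as higher, at log2 ratios of only -0.02 and 0.01. Among all 23672 tested genes, 12193 had lower values. Of 10 loci entered for recycling, 9 were tested, of which 1 was called higher and 5 lower by the authors' deposited q-values, where 7.24% of all tested genes were called higher and 12.1% lower. All 3 glutathione reductase loci fell, which supply the reduced glutathione used by dehydroascorbate reductase. The most abundant, OS02G0813500, was read at 45.8 FPKM in d1 and 61.3 FPKM in WT (q = 0.0491 in the authors' deposited table). OS03G0851100 fell to 3.84 FPKM in d1, against 10.8 FPKM in WT, a 2.80-fold fall with q = 0.000186 in the authors' deposited table. OS10G0415300 fell to 0.244 FPKM in d1, against 0.809 FPKM in WT (q = 0.0170 in the authors' deposited table). The call of OS10G0415300, which is below 1 FPKM in both genotypes, was lost with a q under 0.01 and with the minimum of 1 FPKM, and that of OS02G0813500 with a q under 0.01 and with every recomputed adjustment. OS03G0851100 kept its call under all of these settings. Secondary wall markers of xylem and fibre cells moved the same way, with all 3 cellulose synthase loci called lower by the authors' deposited q-values (12.1% of all tested genes) and a sum of 4.17 FPKM in d1 and 13.0 FPKM in WT. With the recomputed adjustment OS09G0422500 (recomputed q = 0.0573) and OS10G0467800 (recomputed q = 0.0743) were no longer called. The part of these markers in the falls of these reductases and of APX1, APX7 and OS12G0178100 was not tested.

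Of the 2 dehydroascorbate reductase loci, the abundant OS05G0116100 fell to 691 FPKM in d1, against 1005 FPKM in WT, with q = 0.0371 in the authors' deposited table. The other, OS06G0232600, was read at 34.6 FPKM in d1 and 34.2 FPKM in WT and did not pass. Monodehydroascorbate reductase showed both directions. MDAR2 (OS02G0707100) rose to 220.4 FPKM in d1, against 159 FPKM in WT (q = 0.0414 in the authors' deposited table). OS08G0557600 fell to 10.4 FPKM in d1, against 19.6 FPKM in WT (q = 0.000186 in the authors' deposited table). The most abundant in WT, OS09G0567300, was read at 178 FPKM in d1 and 215 FPKM in WT and did not pass. The remaining tested locus had a log2 ratio of -0.02, and MDAR1 was not tested, at 0.245 FPKM in d1 and 0.137 FPKM in WT. With the recomputed adjustment, the calls of MDAR2 (recomputed q = 0.0991), OS05G0116100 (recomputed q = 0.0907) and OS02G0813500 (recomputed q = 0.113) were lost.

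**Figure D5:**
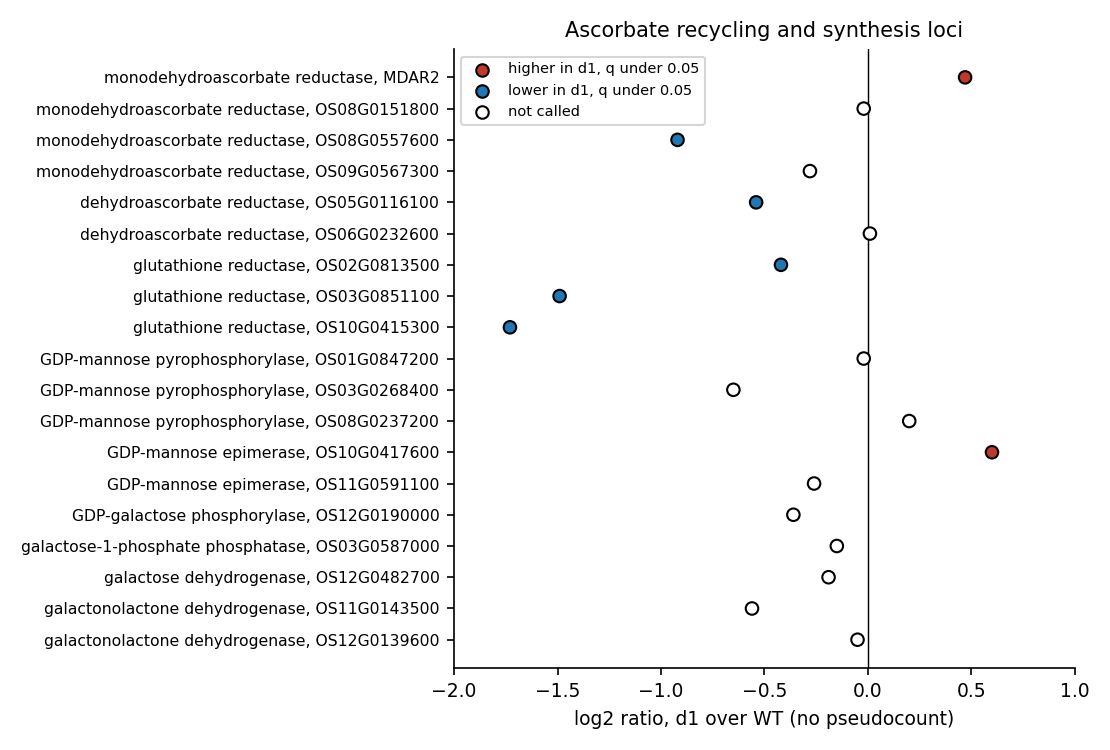
Log2 ratio of d1 over WT for the 19 tested loci of ascorbate recycling and synthesis, with filled points for a q-value under 0.05 in the authors' deposited table. All 3 glutathione reductase points lie left of 0, from -1.73 to -0.42, and the synthesis loci lie between -0.65 and 0.60.

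By the authors' deposited q-values, 1 of 10 listed loci of ascorbate synthesis was called, where 19.3% of all tested genes were called. OS10G0417600, a GDP-mannose epimerase locus, rose to 130.5 FPKM in d1, against 86.0 FPKM in WT (q = 0.00400 in the authors' deposited table). The most abundant synthesis locus, OS12G0190000 for GDP-galactose phosphorylase, the step taken to control ascorbate synthesis in leaves, was read at 389.6 FPKM in d1 and 500.2 FPKM in WT. It did not pass (q = 0.180 in the authors' deposited table). The 3 GDP-mannose pyrophosphorylase loci, which supply the GDP-mannose for the pathway, did not pass either, at log2 ratios from -0.65 to 0.20. The most abundant of them, OS08G0237200, was read at 23.8 FPKM in d1 and 20.7 FPKM in WT. The phosphatase locus OS03G0587000 was read at 17.2 FPKM in d1 and 19.1 FPKM in WT, and the galactose dehydrogenase locus OS12G0482700 at 14.4 FPKM in d1 and 16.4 FPKM in WT, neither of which passed. The 2 loci of galactonolactone dehydrogenase, the last enzyme, were low, at log2 ratios of -0.56 and -0.05 that did not pass. OS12G0139600 was read at 1.08 FPKM in d1 and 1.12 FPKM in WT, and OS11G0143500 at 0.858 FPKM in d1 and 1.27 FPKM in WT. Over recycling and synthesis together, 19 loci were tested, with 2 called higher, 5 called lower and a median log2 ratio of -0.26, beside 7.24% higher and 12.1% lower over all tested genes. With the recomputed adjustment these counts were 1 higher and 3 lower, beside 5.09% and 9.17%.

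Other enzymes of peroxide and superoxide removal were counted beside the family. Of 17 tested loci, 2 were called higher and 2 lower by the authors' deposited q-values, with a median log2 ratio of -0.07 and a range from -0.64 to 0.70. These 4 calls are a share close to the 19.3% of all tested genes that were called. Most of the 17 loci were in the top group by level, however, where 33.8% of genes were called. The 3 catalase loci, whose enzymes break down peroxide in the peroxisome without ascorbate, were not called. CATC was read at 2753 FPKM in d1 and 2402 FPKM in WT, and CATA at 1355 FPKM in d1 and 1901 FPKM in WT. CATB was read at 36.3 FPKM in d1 and 35.2 FPKM in WT. The catalase sum of 4144 FPKM in d1 and 4338 FPKM in WT exceeded the sum of the whole ascorbate peroxidase family in both genotypes.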

How the data were processed

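RNA of 4 libraries, 2 of d1 and 2 of WT, was sequenced by the authors. The authors used FastQC, Trimmomatic, TopHat2, Cufflinks, Cuffdiff and the build IRGSP-1.0, per the submitters' processing notes. Versions, parameters, annotation and library scaling were not stated there. The authors deposited 1 FPKM value per gene and genotype, with a test statistic (a signed score), a p-value and a q-value, which are those of the authors' deposited table. Labels call the libraries biological replicates, and separate plants are not stated. From the FPKM values the log2 ratio of d1 over WT was computed without a pseudocount, in place of the deposited log2 column, which holds text. Loci with a q-value under 0.05 were called, the deposited mark of significance in every row. Of the rows, 23672 were tested, 11994 were not and 1 was too deep. None of the listed loci was among the 61 repeated identifiers (138 rows). The Benjamini-Hochberg adjustment was recomputed with Python 3.11.15 and numpy 2.4.6. Its code was checked on simulated ratios with a known spread, which does not bear on the authors' p-values. The 53 other listed loci, including markers, were entered from general knowledge without a check against an annotation, and the members and lists were chosen with earlier results of these data known. Every ascorbate peroxidase locus is named, then called loci and the most abundant one per enzyme of the recycling and synthesis list, and catalases. RefSeq served for names and order only, and no sequences are shown.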

Additional observations from a re-analysis of the deposited data

How the results depend on the processing

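No paired analysis was possible because each genotype has a single pooled value and no column carries a replicate number. For the same reason, neither a replicate block nor the omission of single libraries was run. The calls of 2 ascorbate peroxidase loci higher and 3 lower in d1 were the same with the recomputed adjustment. They were also the same with a minimum of 1 FPKM and with repeated identifiers left out. These settings reuse the deposited p-values, so keeping the calls adds no separate support for them. A q under 0.01 gave 2 and 2. Asking for at least 2-fold on the deposited scale left 2 higher and 0 lower, since APX1, APX7 and OS12G0178100 changed by less. With both FPKM sums set equal, the log2 ratios were 0.81 for APX8, 1.58 for APX3, -1.03 for APX1, -1.25 for APX7 and -0.85 for OS12G0178100. On that scale APX8 fell short of 2-fold, while APX1 and APX7 exceeded it. For recycling and synthesis, the deposited q-values under 0.05 gave 2 higher and 5 lower. The recomputed adjustment gave 1 and 3, and a q under 0.01 gave 1 and 2. With both FPKM sums set equal, the 2 called rises shrank. MDAR2 went from a log2 ratio of 0.47 to 0.20, and OS10G0417600 from 0.60 to 0.33. The called falls became larger on that scale.

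The family's median log2 ratio of -0.43 became -0.70 with both FPKM sums set equal, -0.41 centred on the median of tested genes and -0.40 with 1 FPKM added. With equal sums, the log2 ratio of summed FPKM became -0.80 for the cytosol, -0.08 for the peroxisome (a change of direction from 0.19), -0.83 for the chromosome 12 pair, 0.68 for the chloroplast and 0.00 for the family. Centred on the median, these were -0.51, 0.20, -0.54, 0.97 and 0.29. No called ascorbate peroxidase locus changed direction on these scales. Without mapped reads and transcript lengths, the counting error of the low loci, APX3 above all, is unknown.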
